A study of Homo sapiens with 4 samples.

Results

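The liver coagulation and complement genes are 39 secreted plasma protein genes, among them clotting factors, the fibrinogen chains, anticoagulants, fibrinolysis proteins and components of the complement cascade. They were taken by symbol from the 44591 genes in the deposited tables, and every one of the 39 symbols was found. The study knocked down LINC01186, a long noncoding RNA that it names SALIS, to learn which genes the RNA regulates. HepG2, an established human hepatocellular carcinoma line, was the cell type named on every library. Cells received siNC, a control siRNA, or siLINC01186, siRNA against LINC01186, and each group had 2 libraries, numbered replicate 1 and replicate 2. Both groups then spent 6 h in medium without serum and 24 h in medium with serum, and no other treatment or genotype was recorded. According to the study's description of its RNA-seq the repeats shared the siNC oligo and used different siLINC01186 oligos, so each siLINC01186 oligo was sequenced once. The labels do not say which oligo a library received or whether the same-numbered libraries came from 1 culture. P-values therefore measure the spread between these libraries.

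In the liver, hepatocytes make most of the clotting and complement proteins of blood. Clotting factors are proteases that activate each other in turn until prothrombin becomes thrombin, which turns soluble fibrinogen into a fibrin clot, while antithrombin and the protein C and protein S system hold the reaction in check and plasmin dissolves the clot. Complement starts from C1 or from mannose-binding lectin, converges on cleavage of C3, and ends in a membrane pore built from C5 onwards. Many complement genes are also active outside the liver, whereas fibrinogen, plasminogen and several clotting factors are close to restricted to hepatocytes.

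The libraries held 14968958 to 17297245 counts. LINC01186 itself had 15 and 14 counts in siNC and 12 and 14 in the libraries labelled siLINC01186, given here and below as replicate 1 and then replicate 2. The log2 difference was -0.12 with a 95% interval from -1.31 to 1.08, so no fall was detectable at this depth and the directions given for siLINC01186 are between libraries as labelled. The study itself reports knockdown of this RNA in HepG2 cells by quantitative PCR. The 11 hepatocyte markers examined were mostly at or near 0, which goes against what HepG2 is known to secrete. ALB, which encodes albumin, had 0 and 15 counts in siNC and 0 and 14 in the libraries labelled siLINC01186. APOA1, the main apolipoprotein of HDL, had 0 and 21 counts in siNC and 0 and 20 in the libraries labelled siLINC01186. Summed over 9 secreted markers, siNC had 4 and 125 counts and the libraries labelled siLINC01186 had 6 and 95. The few counts lay almost all in replicate 2, where ALB was at least 4.41-fold and APOA1 at least 6.22-fold higher than a floor of 3 counts, averaged over the replicate 1 libraries as 0.195 CPM. CPM is the count per 1000000 of the library size scaled by the TMM method. HNF4A, a transcription factor of hepatocytes, was detected in every library at 79 and 161 counts in siNC and 83 and 188 in the libraries labelled siLINC01186.

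Most coagulation genes were low or undetected in these libraries, while several complement genes were clearly expressed. Of the 39 genes, 14 had 3 counts or fewer in every library, and 3 of those, F11, F13B and C8B, were at 0 throughout. At this depth a count of 0 allows up to 3 counts, a limit that covers counting error only. In siNC, 7 genes reached 10 TPM, 9 lay between 1 and 10, and 23 were under 1. TPM is the deposited count per gene length, scaled to 1000000 per library, and is the unit used here wherever genes are set beside each other. It is not compared between siRNA groups, because 1 microRNA gene, MIR6087, took an unequal share of that total. MIR6087 was at 11600 and 19100 TPM in siNC and 138000 and 86900 in the libraries labelled siLINC01186. Of the 23 coagulation and fibrinolysis genes, 10 were at this floor and 1 reached 10 TPM. Among the 16 complement genes these numbers were 4 and 6. Of the 39 genes, 14 overlap the listed span of another gene, mostly on the opposite strand, whose reads a library without strand marking cannot separate. Several of these other genes, such as those over F11, PROC, C4A and C4B, had 0 counts in every library. C8A is included only through a tRNA gene listed from 16847080 to 143879905 on chromosome 1. C4BPB, CLU and C3 together held 85.6 to 88.4% of the CPM of all 39 genes. The plot of TPM by library shows this division.

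**Figure D1:**
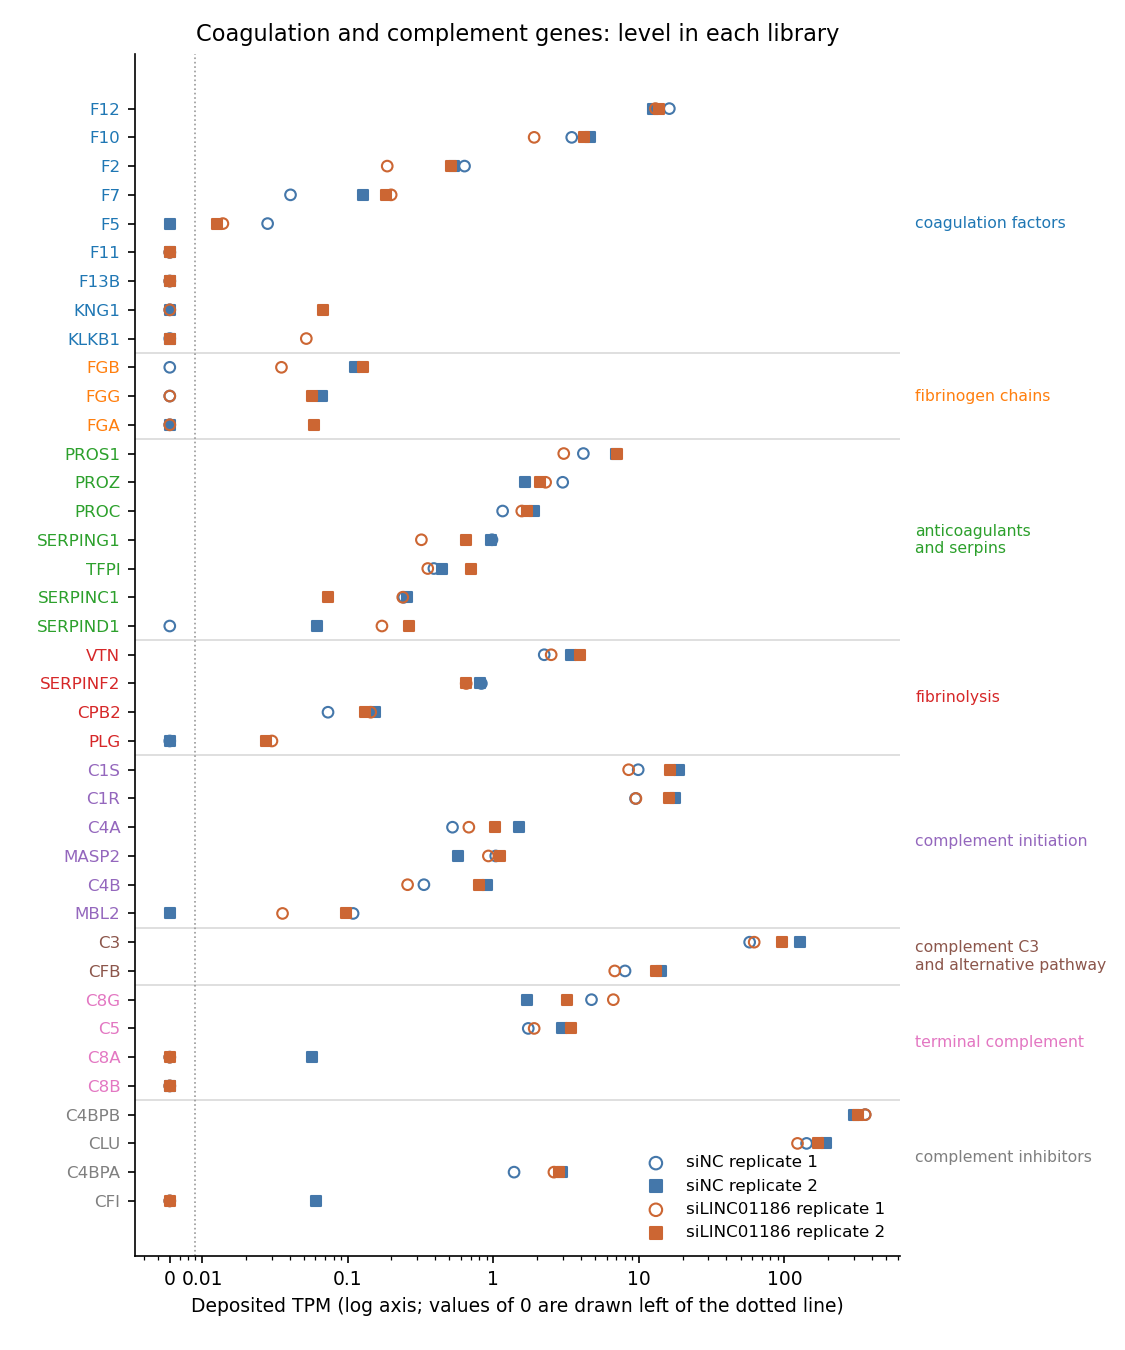
Deposited TPM (log axis) of the 39 genes in each library, grouped by role; open circles are replicate 1, filled squares replicate 2, blue siNC and orange siLINC01186, and values of 0 are drawn left of the dotted line. C4BPB, CLU and C3 lie highest, most clotting factors and all 3 fibrinogen chains lie low, and the circles of C3, C1S, C1R and CFB lie left of their squares.

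The promoters of these genes were read for letters of transcription factor sites that liver genes are known for. The capitals mark TTCNNNGAA, the palindrome bound by STAT factors, in the 4 genes C1R, CFB, PROS1 and C4BPB, chosen because the first 3 differed between replicate numbers and C4BPB had the highest level. STAT sites were searched because STAT5A is the transcription factor the study examined. In the FGA and FGB promoters, shown because these genes were at or near the floor, they mark ATTAAC, the reverse complement of the HNF1 half-site GTTAAT. Each run holds the 250 bases before a transcription start, 5′ to 3′ on the gene's strand, from RefSeq on GRCh38.p14.
C1R, chr12:7091894-7092143, minus strand: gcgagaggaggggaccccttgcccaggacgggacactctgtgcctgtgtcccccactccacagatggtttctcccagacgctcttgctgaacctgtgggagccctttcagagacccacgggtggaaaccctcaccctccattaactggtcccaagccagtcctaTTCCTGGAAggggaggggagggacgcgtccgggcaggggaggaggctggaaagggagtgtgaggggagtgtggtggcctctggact
CFB, chr6:31945845-31946094, plus strand: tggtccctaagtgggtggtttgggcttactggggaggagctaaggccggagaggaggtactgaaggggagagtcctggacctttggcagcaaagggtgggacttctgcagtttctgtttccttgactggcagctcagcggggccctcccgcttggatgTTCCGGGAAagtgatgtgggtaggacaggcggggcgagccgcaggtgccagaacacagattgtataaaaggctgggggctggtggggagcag
PROS1, chr3:93973897-93974146, minus strand: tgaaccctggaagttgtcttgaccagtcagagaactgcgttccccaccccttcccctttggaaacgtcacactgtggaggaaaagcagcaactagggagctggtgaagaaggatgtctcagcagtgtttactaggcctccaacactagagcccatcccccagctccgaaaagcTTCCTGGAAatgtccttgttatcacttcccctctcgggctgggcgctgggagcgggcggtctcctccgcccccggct
C4BPB, chr1:207089033-207089282, plus strand: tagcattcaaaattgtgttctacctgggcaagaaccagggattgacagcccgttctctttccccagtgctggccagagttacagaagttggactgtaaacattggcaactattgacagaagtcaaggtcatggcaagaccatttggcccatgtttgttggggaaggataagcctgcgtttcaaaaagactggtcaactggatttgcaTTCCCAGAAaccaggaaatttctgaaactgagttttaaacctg
FGA, chr4:154590743-154590992, minus strand: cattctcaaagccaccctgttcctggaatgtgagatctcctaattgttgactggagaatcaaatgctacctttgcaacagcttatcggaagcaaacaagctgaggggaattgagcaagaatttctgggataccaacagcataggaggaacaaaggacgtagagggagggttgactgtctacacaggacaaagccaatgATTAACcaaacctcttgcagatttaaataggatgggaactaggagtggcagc
FGB, chr4:154562730-154562979, plus strand: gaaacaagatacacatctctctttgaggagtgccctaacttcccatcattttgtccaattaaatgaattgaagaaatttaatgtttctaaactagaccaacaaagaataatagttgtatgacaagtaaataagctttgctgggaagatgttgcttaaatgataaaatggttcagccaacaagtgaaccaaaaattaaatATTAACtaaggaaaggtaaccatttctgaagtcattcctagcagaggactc

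The STAT match began 86 bases before the start used here in C1R, 92 in CFB, 77 in PROS1 and 43 in C4BPB. The HNF1 match began 52 bases before it in FGA and 51 in FGB. C1R had 2 listed starts and C4BPB 3, and the STAT palindrome was found before the printed start only. FGB had 2, and its HNF1 match lay 82 bases before the other start. Promoters were held for 30 of the 39 genes. C1S, C3, C4A, C4B, C8G, CLU, SERPINC1, SERPINF2 and SERPING1 had no entry. On either strand, TTCNNNGAA stood in 11 of the 30 (36.7%) against 8.09% of 27305 genes of all kinds, a gene counting once if any of its starts had a match. GTTAAT also stood in 11 of 30 (36.7%), against 7.5% of genes, and TTGCNNAA, a C/EBP core, in 9 of 30 (30%), against 11%. The HNF1 half-site was present in 6 of 13 genes at the floor and in 5 of 17 above it, and the STAT palindrome in 4 of 13 and 7 of 17. The printed C1R run also holds the HNF1 half-site, 111 bases before the start, and the FGA run a STAT palindrome, 231 bases before it, both left in lower case. A match is a description of these letters and does not show that a factor was bound.

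The genes of the common and contact clotting pathways were led by F12, which encodes the contact-phase zymogen factor XII. F12 was at 14.4 ± 2.56 TPM (SD, n = 2) in siNC, with 257 and 190 counts there and 209 and 241 in the libraries labelled siLINC01186. F10, which encodes the factor that cleaves prothrombin, followed at 4.03 ± 0.812 TPM. Prothrombin itself, F2, was at 0.585 ± 0.0717 TPM, from 10 and 8 counts in siNC and 3 and 9 in the libraries labelled siLINC01186. Thus the zymogen that starts the contact pathway was detected at a level where prothrombin was close to the floor. F7, which encodes the trigger protease of tissue factor, was at 0.0841 ± 0.0616 TPM, and F5, the cofactor of factor Xa, at 0.0141 ± 0.02 TPM. F5 had 2 and 0 counts in siNC and 1 and 1 in the libraries labelled siLINC01186. KNG1, the kininogen gene, and KLKB1, the plasma prekallikrein gene, were at 0 TPM in siNC and had at most 2 counts and 1 count in any library. F12 was thus detected while its contact-phase partners were at the floor.

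The 3 fibrinogen chains, neighbours on chromosome 4 at 155484132 to 155533960 in hg19, the build named in the submitters' processing notes, had between 0 and 4 counts. FGA had 0 and 0 counts in siNC and 0 and 2 in the libraries labelled siLINC01186. FGB had 0 and 3 counts in siNC and 1 and 4 in the libraries labelled siLINC01186, and FGG had 0 and 1 in each group. In siNC this was 0 TPM for FGA, 0.0563 ± 0.0796 for FGB and 0.0333 ± 0.0472 for FGG. Summed over the 3 chains, siNC had 0 and 4 counts and the libraries labelled siLINC01186 had 1 and 7, with the larger sums in replicate 2.

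Among the anticoagulants and serpins, PROS1 was highest. It encodes protein S, the cofactor of activated protein C, and was at 5.58 ± 2.01 TPM in siNC. PROZ, whose product helps to inhibit factor Xa, was at 2.33 ± 0.945 TPM, and PROC, the protein C gene, at 1.54 ± 0.528 TPM. SERPING1, the C1 inhibitor gene, was at 0.97 ± 0.0136 TPM and TFPI, which restrains the tissue factor pathway, at 0.417 ± 0.0363 TPM. SERPINC1, which encodes antithrombin, had 3 and 3 counts in siNC and 3 and 1 in the libraries labelled siLINC01186, or 0.249 ± 0.00866 TPM in siNC. SERPIND1, the heparin cofactor II gene, was lowest at 0.0306 ± 0.0433 TPM. So the vitamin K-dependent anticoagulants PROS1, PROC and PROZ were above 1 TPM while the main circulating thrombin inhibitor was not. In fibrinolysis, VTN, which encodes the PAI-1-binding protein vitronectin, led at 2.82 ± 0.825 TPM. VTN had 29 and 42 counts in siNC and 33 and 57 in the libraries labelled siLINC01186. SERPINF2, the plasmin inhibitor gene, was at 0.82 ± 0.0115 TPM. CPB2, the gene of the carboxypeptidase that protects fibrin, had 1 and 2 counts in siNC and 2 and 2 in the libraries labelled siLINC01186 (0.114 ± 0.0571 TPM in siNC). PLG, which encodes plasminogen, had 0 counts in siNC and 1 and 1 in the libraries labelled siLINC01186.

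In complement, C1S and C1R, which encode the proteases of the C1 complex, were at 14.4 ± 6.41 and 13.6 ± 5.77 TPM in siNC. They lie beside each other on chromosome 12 in hg19, C1S at 7167965 to 7178336 and C1R at 7187513 to 7245043. MASP2, the gene of the lectin pathway's protease, was at 0.808 ± 0.331 TPM and shares its span with an antisense gene of 14 to 21 counts. Its partner MBL2, mannose-binding lectin, had 3 and 0 counts in siNC and 1 and 3 in the libraries labelled siLINC01186 (0.0544 ± 0.077 TPM in siNC). The protease genes of the classical pathway were therefore detected far above the recognition protein of the lectin pathway. In the wider list below, C1QA, C1QB and C1QC, the recognition genes of the classical pathway, had at most 1 count in any library. C4A and C4B, near-identical neighbours on chromosome 6, were at 1.01 ± 0.693 and 0.618 ± 0.402 TPM. How the counting divided reads between the copies is not given in the sources used here, so their separate values are uncertain. C3, the centre of the cascade, was at 92.6 ± 49.4 TPM, and CFB, the alternative-pathway protease gene, at 11.1 ± 4.32 TPM. Of the terminal genes, C8G was at 3.22 ± 2.14 TPM and C5 at 2.35 ± 0.861 TPM. C8G, a lipocalin, was detected without C8A and C8B, the pore-forming chains it joins in C8. C8A had 1 count, in siNC replicate 2 (0.0284 ± 0.0402 TPM in siNC), and C8B none.

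The complement inhibitors held the highest levels. C4BPB, the beta chain of C4b-binding protein, was at 330 ± 39.7 TPM in siNC, with 358 and 302 TPM in the siNC libraries. Its values in both groups are given below as CPM. C4BPA, the alpha chain that carries the binding sites for C4b and lies next to C4BPB on chromosome 1, was at 2.18 ± 1.12 TPM. The neighbouring chain genes were thus 1 and 14 in the order of siNC levels. CLU, the gene of the lipid-carrying chaperone clusterin that also blocks the terminal pore, was at 167 ± 35.7 TPM. CFI, which encodes the protease that inactivates C3b and C4b, had 1 count, in siNC replicate 2 (0.0305 ± 0.0431 TPM in siNC). In the order of siNC levels C4BPB, CLU and C3 did not overlap between libraries. C1S, F12, C1R and CFB followed with overlapping values from 8.04 to 19.0 TPM.

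The next comparison asked whether the libraries labelled siLINC01186 differed from siNC in these genes. None of the 39 passed the study's limits, which ask for a log2 difference of more than 1 in size with an unadjusted p under 0.05, in edgeR's quasi-likelihood test. The test covered 28 of the 39, and the other 11 had fewer than 5 counts in all. Over all 23942 genes tested, 181 passed (0.756%), 289 had an unadjusted p under 0.05 (1.21%), and 0 had a Benjamini-Hochberg adjusted p under 0.05 (0%). Of the 39 genes, 0 were at an unadjusted p under 0.05 in this fit. By DESeq2's Wald test 0 passed the limits as well. These zeros depend in part on the fit. With the replicate number added to edgeR's fit as a block, 278 of all genes had an adjusted p under 0.05. In that fit 0 of the 39 passed the limits and 2, C8G and C4BPB, had an unadjusted p under 0.05. The median log2 difference of the tested genes was 0.08 beside 0.01 over all genes, and it ranged from -0.15 without siNC replicate 1 to 0.47 without siNC replicate 2. The smallest p, 0.0885, belonged to SERPIND1, with 0 and 1 counts in siNC and 3 and 5 in the libraries labelled siLINC01186. SERPIND1 lies wholly inside PI4KA on the opposite strand, which had 1649 to 2201 counts, and a kit that does not mark strand cannot separate them. In 5 of the 39 genes (12.8%) both libraries labelled siLINC01186 lay above both siNC libraries and in 2 (5.1%) both lay below. Over the 28 tested the numbers were 4 (14.3%) and 2 (7.1%), where the shares over all tested genes were 13.6% and 12.4%. Of these 4, SERPIND1 and F7 passed the minimum of 5 counts only through the libraries labelled siLINC01186, so their place in the test and in that share rests on the higher group.

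Among the 17 genes with a mean of at least 1 CPM in siNC, standard errors of 0.20 to 0.63 on the log2 scale set what could be seen without a block. With the replicate number as a block the standard error was 0.11 for C3, 0.11 for C4BPB and 0.17 for CFB. C4BPB had the narrowest interval in the fit without a block, from which the intervals here come. It was at 202 and 168 CPM in siNC and 241 and 190 in the libraries labelled siLINC01186, a log2 difference of 0.22 with a 95% interval from -0.24 to 0.69. C3 was at 136 and 298 CPM in siNC and 175 and 240 in the libraries labelled siLINC01186, which lay between the siNC values. Its log2 difference was -0.07 with a 95% interval from -0.83 to 0.69. CFB differed by 0.00, with a 95% interval from -0.78 to 0.78.

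Within each replicate number the same genes were compared without a test, since each number holds 1 library of each group. Of the 17 genes, 5 were higher in the library labelled siLINC01186 in both numbers, 2 were lower in both, and 10 differed in opposite directions. Over all genes tested, at any level, both differences had the same sign in 53.8%. C8G gave log2 differences of 0.72 and 0.87 in replicates 1 and 2, from 32 and 11 counts in siNC and 46 and 24 in the libraries labelled siLINC01186. C8G was the one member that passed the study's limits when a library was left out, siNC replicate 1, with 1 member called. C5, the source of the C5a peptide, gave 0.38 and 0.30, VTN 0.39 and 0.29, and C4BPB 0.26 and 0.18. C4BPA gave 1.10 in replicate 1 and 0.03 in replicate 2. C3 gave 0.36 and -0.31 and C4A 0.58 and -0.44, each of opposite sign. Whether the differences of replicates 1 and 2 themselves differ was not tested, because no library is left to measure the spread. The plot of both differences shows the spread over the 4 quadrants.

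**Figure D2:**
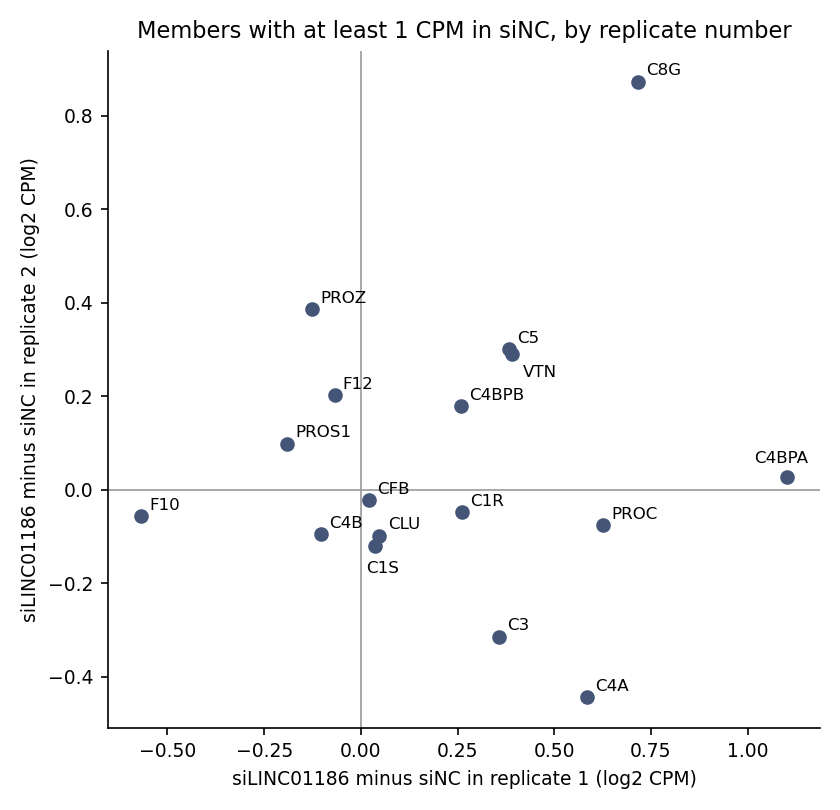
Log2 CPM difference, siLINC01186 minus siNC, in replicate 1 (horizontal axis) and in replicate 2 (vertical axis) for the 17 genes with at least 1 CPM in siNC; each point is 1 gene. C8G lies high in both replicates, C4BPA in replicate 1 only, and C3 and C4A below 0 in replicate 2.

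The replicate numbers differed more than the siRNA groups. Replicate 2, with 1 siNC and 1 siLINC01186 library, was compared with replicate 1 by the edgeR method used above. Of the 39 genes, 6 (15.4%, or 21.4% of the 28 tested) were higher in replicate 2 at an adjusted p under 0.05, C3, C1S, C1R, CFB, C4B and PROS1, and 0 were lower. Over all genes tested 4.44% were called higher in replicate 2 and 4.57% lower. Of the 6 genes 5 belong to the 13 complement genes tested, and 1, the anticoagulant gene PROS1, to the 15 coagulation and fibrinolysis genes tested. The sides also differ in level. Of the 28 tested, 6 had fewer than 10 counts in every library, and all of these except MBL2 are coagulation or fibrinolysis genes. The median log2 difference of the tested genes was 0.38 beside 0.02 over all genes. Both replicate 2 libraries lay above both replicate 1 libraries for 14 of the 39 genes (35.9%) and below for 5 (12.8%). Over the 28 tested the numbers were 13 (46.4%) and 4 (14.3%), against 27% and 25.6% of all genes tested, and FGB passed the minimum count only through replicate 2.

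C3 had 2285 and 4811 counts in siNC and 2498 and 4261 in the libraries labelled siLINC01186. Its mean was 156 ± 27.2 CPM (SD, n = 2) in replicate 1 and 269 ± 41.2 CPM in replicate 2, and the replicates did not overlap. The log2 difference of C3 was 0.79 ± 0.14 (SE), with an adjusted p of 0.00312 in edgeR's test. It was larger in siNC, at 1.13, than in the libraries labelled siLINC01186, at 0.46, a contrast that could not be tested.

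Both C1 protease genes were higher in replicate 2. C1S was at 12.9 and 24.4 CPM in siNC and 13.2 and 22.5 in the libraries labelled siLINC01186, a log2 difference of 0.84 ± 0.16 (SE) with an adjusted p of 0.00445 in edgeR's test. C1R was at 9.91 and 18.2 CPM in siNC and 11.9 and 17.6 in the libraries labelled siLINC01186, a difference of 0.72 ± 0.17 with an adjusted p of 0.0158 in the same edgeR test. For both genes the replicate 2 libraries of either siRNA lay above the replicate 1 libraries. C1RL, a related protease gene that is not among the 39 and lies beside C1R, rose as well.

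CFB, whose promoter carries the STAT palindrome printed above, was at 9.73 and 16.9 CPM in siNC and 9.87 and 16.7 in the libraries labelled siLINC01186. The 2 libraries of a replicate number nearly coincided, at 9.80 ± 0.0969 CPM in replicate 1 and 16.8 ± 0.18 CPM in replicate 2. The log2 difference was 0.78 ± 0.17 (SE), with an adjusted p of 0.00983 in edgeR's test. PROS1 was at 7.04 and 11.7 CPM in siNC and 6.16 and 12.5 in the libraries labelled siLINC01186. Its difference was 0.87 ± 0.19 (SE), with an adjusted p of 0.00976 in edgeR's test. CFB, an alternative-pathway gene, and PROS1, an anticoagulant gene, lie on different chromosomes.

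C4B had 14 and 36 counts in siNC and 11 and 37 in the libraries labelled siLINC01186, and C4A 22 and 60 and then 29 and 48. C4B was 1.41 ± 0.38 (SE) higher in replicate 2 on the log2 scale with an adjusted p of 0.0289 in edgeR's test, and C4A 0.95 ± 0.33 with 0.084. Both copies were higher in replicate 2 in each group, and given their near-identity the call for one and not the other is uncertain. By DESeq2's Wald test C4B had an adjusted p of 0.141. Leaving out a library ended 3 of the 6 calls in edgeR's test. Without siNC replicate 1 the adjusted p was 0.15 for C1R and 0.0853 for C4B, and without siLINC01186 replicate 1 it was 0.109 for C4B and 0.0707 for PROS1. Without siLINC01186 replicate 2, the log2 differences of the 6 genes ran from 0.739 for C1R to 1.457 for C4B. The calls of C3, C1S and CFB held in each of these settings.

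**Figure D3:**
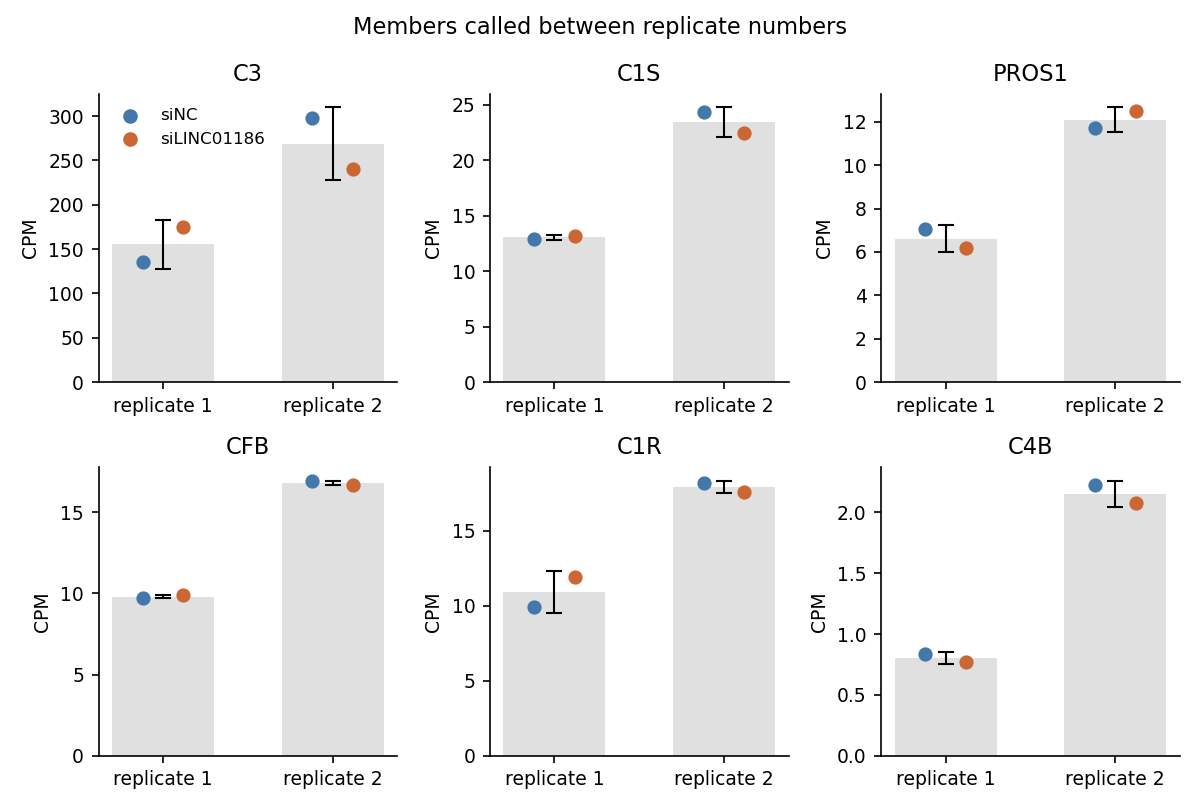
CPM of the 6 genes called between replicate numbers, with bars for the mean and error bars for the SD of 2 libraries, and points for siNC (blue) and siLINC01186 (orange). In every panel both replicate 2 points lie above both replicate 1 points, and in C3 the siNC points lie farther apart than the siLINC01186 points.

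A further 5 genes had an unadjusted p under 0.05 between replicate numbers and did not pass the adjusted threshold, 3 with higher and 2 with lower values in replicate 2. CLU was at 216 and 289 CPM in siNC and 223 and 270 in the libraries labelled siLINC01186, a log2 difference of 0.35 ± 0.11 (SE) with an adjusted p of 0.063 in edgeR's test. C5 had 84 and 136 counts in siNC and 94 and 185 in the libraries labelled siLINC01186, and its difference was 0.71 ± 0.22, with an adjusted p of 0.0511 by edgeR. C4A, described above, is the other gene with higher values. On the other side, C8G was -1.30 ± 0.40 with an adjusted p of 0.0551 by edgeR, and C4BPB -0.31 ± 0.13 with 0.145. These differences ran against those of the called genes, although C8G and C4BPB are complement genes as well. With the siRNA group added as a term, all 5 were called, 11 genes in all. Over all 23942 genes tested, calls rose from 2158 to 4191 with this term.

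**Figure D4:**
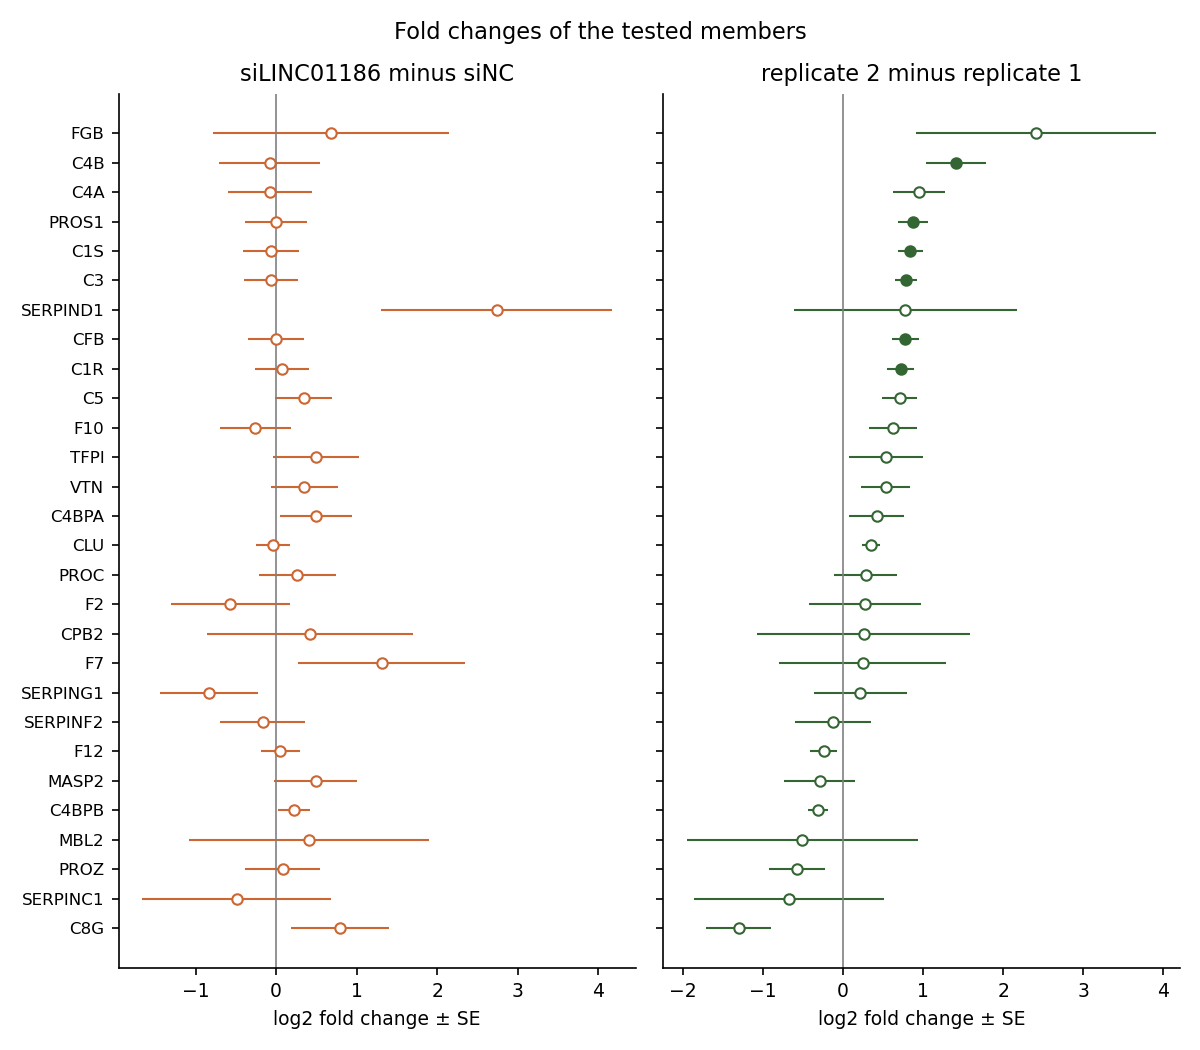
Log2 fold change with its standard error (horizontal bars) of the 28 tested genes, siLINC01186 minus siNC on the left and replicate 2 minus replicate 1 on the right; filled points had an adjusted p under 0.05. No point is filled on the left, and 6 are filled on the right, all above 0.

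Some markers of hepatocytes and of other cell types also differed between replicate numbers, and their part in the differences of the 39 genes was not tested. Of the 11 hepatocyte markers, 7 were called higher and 0 lower, but 6 of the 7 reached the minimum of 5 counts only through replicate 2, so that number is no measure of its own. HNF4A, at 4.72 and 9.97 CPM in siNC and 5.81 and 10.6 in the libraries labelled siLINC01186, was the one that did not. The summed level of the 9 secreted markers was 0.239 to 0.42 CPM in replicate 1 and 5.35 to 7.74 CPM in replicate 2. Of 5 stellate cell and fibroblast markers 2 were called higher, COL1A1 and PDGFRB, and their summed level was 45.5 to 47.8 CPM in replicate 1 and 82.4 CPM in both replicate 2 libraries. Of 5 endothelial markers 1 was called, TEK, the sum was 1.96 to 3.64 CPM in replicate 1 and 4.15 to 4.39 CPM in replicate 2, and KDR was at 0. CDH5, another endothelial marker, ran the other way without a call, at 17 and 20 counts in siNC and 37 and 13 in the libraries labelled siLINC01186. Of 5 macrophage markers 1 was called, CSF1R, the sum was 0.597 to 0.84 CPM and 2.08 to 3.21 CPM, and PTPRC had at most 2 counts. Of 5 platelet markers 0 were called, the sum was 7.52 to 8.68 CPM in replicate 1 and 10.5 to 12.3 CPM in replicate 2, and PF4 and GP9 were at 0. GP1BA, at 68 and 101 counts in siNC and 60 and 126 in the libraries labelled siLINC01186, had an adjusted p of 0.064 by edgeR. In bulk RNA fewer cells of a type and less RNA per cell cannot be told apart. Of 9 acute-phase genes 6 were at the floor and 0 were called. The plot of counts sets the hepatocyte markers beside 8 of the 39 genes.

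**Figure D5:**
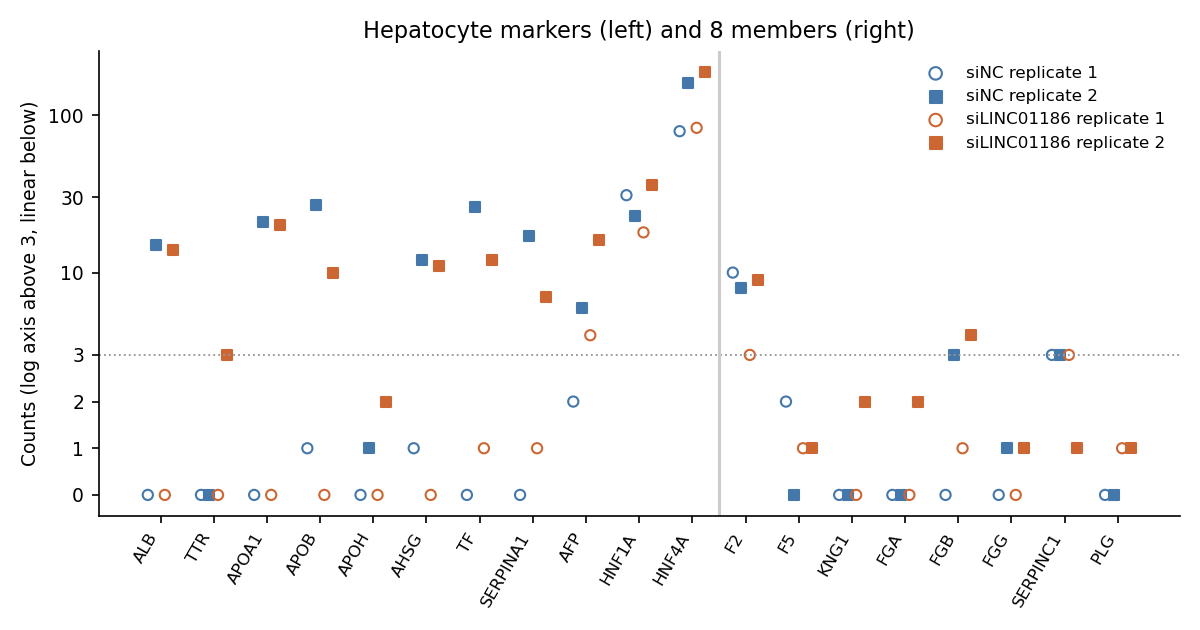
Counts (log axis above 3, linear below) of the 11 hepatocyte markers, left of the grey line, and of 8 genes of the clotting and fibrinolysis groups, right of it; circles are replicate 1, squares replicate 2, blue siNC and orange siLINC01186, and the dotted line marks 3 counts. ALB and APOA1 are at 0 in both replicate 1 libraries, and F2 alone of the 8 genes exceeds 4 counts.

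A wider list of 56 other coagulation and complement genes, receptors, membrane regulators and enzymes among them, was read from the same fits. Of the 56, 25 had 3 counts or fewer in every library and 33 were tested. Between siRNA groups 0 passed the study's limits. Between replicate numbers 2 were called higher in replicate 2 and 2 lower, each 6.1% of the 33 tested, near the 4.44% and 4.57% over all genes tested. Their median log2 difference was 0.13. C1RL rose, with 313 and 599 counts in siNC and 272 and 595 in the libraries labelled siLINC01186, a log2 difference of 0.90 and an adjusted p of 0.00189 by edgeR. PLAT, the tissue plasminogen activator gene, rose by 0.73 with an adjusted p of 0.0229 by edgeR, with 298 and 361 counts in siNC and 174 and 490 in the libraries labelled siLINC01186. The genes called lower both encode protease inhibitors. TFPI2, which encodes a protease inhibitor related to TFPI, fell by 0.98 with an adjusted p of 0.00902 by edgeR, with 503 and 346 counts in siNC and 517 and 217 in the libraries labelled siLINC01186. SERPINE2, the protease nexin-1 gene, fell by 0.59 with an adjusted p of 0.0178 by edgeR, with 2794 and 1962 counts in siNC and 2136 and 1576 in the libraries labelled siLINC01186. Of the 25 genes at this floor, 6 had 0 counts in every library, F9, HRG, FCN1, C6, CFHR2 and VSIG4.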

How the data were processed

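RNA-seq was done on 2 siNC and 2 siLINC01186 libraries with poly(A) selection and a kit that does not mark strand. For every gene the authors deposited an unnormalized read count and a TPM value. The deposited TPM equals the count over gene length, scaled to 1000000 per library, to within 2.91e-05. The submitters' processing notes name HISAT2, HISAT, TopHat2 and Bowtie2 and the build hg19, and the counting program is not given in the sources used here. Groups and replicate numbers came from the labels. No sample was left out.

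For testing, edgeR 4.0.16 in R 4.3.3 was run with TMM and the quasi-likelihood test on genes whose counts summed to 5 or more, with Benjamini-Hochberg adjustment over all 23942 genes tested. SE is the log2 fold change over the root of F, and pair differences are of log2 CPM with a prior count of 2. Groups were compared without a block. Alternatives were DESeq2 1.42.0 (size factors, Wald test), a filter of at least 1 count or edgeR's own, the replicate number or the siRNA group as a term, TMM-scaled counts per kilobase for levels, and each library left out. The edgeR fits were tested on simulated independent libraries with known changes. The simulation of the siRNA groups held no joint deviation of same-numbered libraries, so it does not cover that feature of these data. The libraries held 14968958 to 17297245 counts, and on their TMM-scaled sizes a count of 3 is 0.169 to 0.21 CPM.

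Every member is named with its siNC level, and values in all libraries are given for the highest and lowest detected member of each role, those with an unadjusted p under 0.05, C4A and C4B, and the fibrinogen chains. Of the other list, genes at an adjusted p under 0.05 or past the study's limits are named. Other genes given with values, such as those at the floor, were chosen after their values were seen. The members and lists were chosen with earlier results of these data known. Promoters came from RefSeq, GRCh38.p14, and were searched with Python 3.11.15.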

Additional observations from a re-analysis of the deposited data

How the results depend on the processing

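With 2 libraries a group, depth and replication limit the genes under 1 CPM most. No called value changed sign. Between siRNA groups, 181 genes passed the study's limits, 27 by DESeq2's Wald test and 46 with edgeR's expression filter, which tests fewer genes, and 248 to 375 with 1 library left out. Of the 39 genes, 0 passed under these settings, and 0 to 1 with 1 library left out (C8G, without siNC replicate 1). Their median log2 difference was 0.08, and -0.15 to 0.47 with 1 library left out, turning negative without siNC replicate 1 (-0.15) and without siLINC01186 replicate 2 (-0.03).

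Between replicate numbers, 2158 genes were called, 4191 with the siRNA group as a term, and 1294 to 3332 with 1 library left out. Of the 39 genes 6 were called, 10 with at least 1 count as the filter, 11 with the group as a term, and 5 to 10 with 1 library left out. Their median was 0.55 with edgeR's expression filter, 0.48 with at least 1 count, and 0.33 to 0.70 with 1 library left out. With at least 1 count as the filter, 3129 of all genes were called. The cause of these shifts was not tested.

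Same-numbered libraries deviated together (correlation 0.563 over 16848 genes, first component 62.4% of the variance, which separates the numbers), a hint from the data, since nothing in the labels pairs them. With the replicate number as a block, 220 genes passed the limits, 278 had an adjusted p under 0.05, 0 of the 39 genes were called, and their median was 0.11. At an unadjusted p under 0.05 the block gave 2 of the 39, C8G (0.84, edgeR adjusted p 0.469) and C4BPB (0.22, 0.557). The block narrowed some standard errors, from 0.34 to 0.17 for CFB and from 0.34 to 0.11 for C3. It widened those of several genes with few counts, from 1.433 to 1.885 for SERPIND1 and from 1.281 to 1.799 for CPB2. For single genes, 78 fold changes kept their direction and side of the threshold, 16 gained a call and 5 lost one. Of the ranks of siNC levels 14 were the same and 2 moved.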

Other observations

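ACTB, a cytoskeletal gene often used for scaling, was lower in replicate 2, with 92768 and 49042 counts in siNC and 86490 and 54530 in the libraries labelled siLINC01186, a log2 difference of -0.93 with an adjusted p of 9.43e-05 in edgeR's test. GAPDH, the glycolytic gene also used for scaling, had 75065 and 76126 counts in siNC and 74148 and 74812 in the libraries labelled siLINC01186, a log2 difference of -0.12 with an adjusted p of 0.559 by edgeR.

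Of 10 hypoxia-responsive genes, 0 were called in either comparison, and the median difference between siLINC01186 and siNC was 0.96 on the log2 scale in replicate 1 and -0.27 in replicate 2. CA9, carbonic anhydrase 9, had 277 and 1353 counts in siNC and 1285 and 1490 in the libraries labelled siLINC01186, so siNC replicate 1 held the lowest count. The 8 cell cycle genes gave medians of -0.01 and -0.27 in these replicates and 0 were called.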
